A study of Mus musculus with 12 samples.

Results

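The genes described here carry sugar carbon through central metabolism: 50 genes of glucose and lactate transport, glycolysis, lactate and pyruvate dehydrogenase, the tricarboxylic acid (TCA) cycle and the pentose phosphate pathway, with Hif1a. They were taken from a named list, by pathway step and isozyme, which was chosen with earlier results of these data known. All 50 were among the 23496 genes of the deposited table, and all 50 passed the filter that left 12329 genes to test. Glycolysis splits glucose into pyruvate in the cytosol, with the hexokinase, phosphofructokinase and pyruvate kinase reactions as its regulated steps. Lactate dehydrogenase turns pyruvate into lactate, which leaves the cell through monocarboxylate carriers, whereas the mitochondrial pyruvate dehydrogenase complex turns it into acetyl-CoA for the TCA cycle. The pentose phosphate pathway branches off at glucose 6-phosphate and supplies NADPH and ribose phosphate, and mouse embryonic stem cells are known to change the balance of these routes with the culture medium.

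Transcript levels of pluripotent mouse embryonic stem cells (ESCs) were read from 12 RNA-seq libraries in 3 groups. Wild-type ESCs and ESCs labelled as Tfcp2l1 knockout were each grown in 2i, a serum-free mix of DMEM/F12 and Neurobasal with N2 and B27, LIF at 1000 units/mL, the GSK3 inhibitor CHIR99021 at 3 µM and the MEK inhibitor PD0325901 at 1 µM. Wild-type ESCs were also grown in high-glucose DMEM with LIF at 1000 units/mL and fetal bovine serum (FBS) at 15% in place of the inhibitors, so that the base medium differed together with serum and inhibitors. Tfcp2l1 belongs to the CP2/grainyhead family of transcription factors. The sources used here do not say how the knockout was made or how many clones it rests on. The design text sets wild type against knockout in 2i, to find Tfcp2l1-dependent transcripts, and 2i against FBS in wild type. Both comparisons share the 4 wild-type 2i libraries, so their values below stand side by side and are not independent.

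Levels are FPKM, the fragments of a transcript divided by its length in kilobases and by the library's mapped fragments. They were summed per gene, and group values are means ± SD over n = 4 libraries. Tfcp2l1 itself stood at 132 ± 13.8 FPKM in wild-type 2i, 78.9 ± 5.92 in the knockout and 31.3 ± 4.63 in FBS. The knockout libraries thus lay below every wild-type 2i library but kept 59.8% of the transcript level, and since the deleted stretch is not given in the sources used here, this level does not check the deletion. The 10 ESC markers examined were expressed in all 12 libraries, with a summed level of 3742 to 4486 FPKM in wild-type 2i, 3649.7 to 3852 in the knockout and 3133 to 4136 for FBS. Of these 10, Pou5f1, Zfp42, Esrrb, Tdgf1 and Fgf4 were lower in the knockout and Sall4 was higher, and 6 were higher and 1 was lower in 2i than in FBS. The 20 fibroblast markers summed to 214 to 342 FPKM in wild-type 2i, 391 to 663 in the knockout and 91.0 to 128 in FBS; 17 of the 20 were higher in the knockout, 0 were lower, and none was at 0. Between media 11 of the 20 were higher and 4 lower in 2i. Lowly expressed lists moved too: in the knockout 3 of 3 tested neural, 2 of 3 primitive endoderm, 2 of 6 primed epiblast and 3 of 5 trophoblast markers were higher, and 2 trophoblast markers were lower. Sums in wild-type 2i and knockout were 9.64 to 25.4 and 30.0 to 40.3 FPKM for neural, 5.04 to 6.69 and 6.98 to 8.599 for endoderm, 14.7 to 21.7 and 21.8 to 29.1 for primed epiblast and 6.17 to 10.4 and 8.26 to 9.40 for trophoblast markers. In 2i, 3, 2, 4 and 4 markers of these lists were lower than in FBS and 0 were higher. None of these markers was at 0 in all libraries, and Sox17, Sox7, Foxa2, Afp and Elf5 stayed under 1 FPKM. The part of these lists in the results below was not tested. Chromosome 6 genes were shifted together in single libraries, by a median of -0.17 (log2) in FBS library 3 to 0.21 in wild-type 2i library 4, and Slc2a3, Hk2, Tpi1, Gapdh, Ldhb, Suclg1, Suclg2 and Rpia lie there. In bulk RNA, fewer cells of a type and less RNA per cell cannot be told apart. The labels do not tell whether the 4 repeats of a group were separate cultures; the p-values then reflect only how these samples vary, which may be technical.

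The 50 genes together made up 1.68% to 1.93% of all FPKM in the wild-type 2i libraries, 1.58% to 1.73% in the knockout and 2.15% to 2.38% in FBS, and the FBS libraries all lay above the others. These shares count enolase only by the entry named Eno1, which held little of the enolase FPKM, as described below. In the knockout, 25 of the 50 genes were lower than in wild-type 2i, 2 (Ogdh and Pdhb) were higher and 23 did not pass, by limma on log2(FPKM + 1) with an adjusted p under 0.05. Of all tested genes 45.3% were called, 24.0% as higher and 21.4% as lower. The median log2 difference was -0.17 over the 50 genes and 0.012 over all tested genes. The libraries of both groups did not overlap for 20 lower and 2 higher members. Among all tested genes this was so for 44.1%, 23.7% as higher and 20.4% as lower. Without the 8 members on chromosome 6, 22 of 42 were lower and 2 higher. With the mean log2 level of the fibroblast markers as a further term in the fit, 7 of the 27 calls held (Hk1, Pdk3, Idh3a, Idh3b, Sucla2 and Taldo1 lower, Ogdh higher), the median was -0.14, and calls over all genes dropped from 5589 to 1959. By step, that was 0 of 2 calls for transport, 1 of 6 for upper and 0 of 3 for lower glycolysis, 0 of 1 for lactate dehydrogenase, 1 of 4 for pyruvate dehydrogenase, 4 of 7 for the TCA cycle and 1 of 4 for the pentose phosphate pathway. The 20 calls that were lost kept their direction, and 15 of these differences stayed within 1.5 times of the value without the term, as for Slc16a3 (-0.58), Aldoa (-0.55), Ldha (-0.36) and Tkt (-0.19). Pgam1, Pkm and Dld became smaller than that, Idh3g and Pgd became larger, and the SEs of the 20 were 1.61 to 1.88 times as large. The marker level itself did not overlap between groups: 2.05 to 2.38 in FBS, 2.70 to 3.19 in wild-type 2i and 3.32 to 3.99 in the knockout. The fit therefore cannot part this level from the group, and a held or lost call does not tell what the markers contribute. Scaling ended some of the calls: with quantile normalization Gpi1, Gapdh, Pkm, Dld, Idh3g and Pgd did not pass in the knockout (adjusted p between 0.0735 and 0.54), and with TPM scaling 5 of these 6 did not pass, Gapdh being the exception (adjusted p between 0.0607 and 0.116). Pdhb did not pass with median-ratio scaling (adjusted p = 0.0662). Without a filter Hk2, Gpi1, Pkm and Idh3g did not pass (adjusted p between 0.0515 and 0.0928). With the replicate number as a block in the fit, Gpi1, Pkm, Pdhb and Idh3g did not pass (adjusted p between 0.0561 and 0.0732).

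Between the media, 13 of the 50 genes were higher in wild-type 2i, 17 were lower in 2i than in FBS and 20 did not pass. Over all tested genes 72.4% were called in this comparison, 37.1% as higher and 35.3% as lower in 2i, so the share of members called was not above the background. The libraries did not overlap for 10 members higher and 16 lower in 2i. Among all tested genes this was so for 62.5%, 32.0% as higher and 30.5% as lower. The median log2 difference was -0.056 over the members and 0.014 over all tested genes. Calls fell on both sides within most steps. Counts by step and by related list, here and below, stand against these shares and those given above for the knockout. Lower in 2i were 4 of 5 genes of lower glycolysis, 2 of 10 of upper glycolysis, the carriers Slc2a1 and Slc16a3, the kinase Pdk1 and 3 of 15 TCA cycle genes (Mdh2, Cs and Ogdh). Higher in 2i were 0 of 5 genes of lower glycolysis, 3 of 10 of upper glycolysis, the carrier Slc2a3 and 5 of 15 TCA cycle genes. With the fibroblast marker level as a term in the fit, 20 members were called in this comparison, and Slc2a3, Hk1, Pfkm, Tpi1, Gapdh, Dlat, Dld, Cs, Ogdh and Rpia no longer passed. The direction held for all 10, and 7 of these differences stayed within 1.5 times, as for Slc2a3 (0.66), Tpi1 (-0.69) and Hk1 (0.29). Dld, Cs and Rpia became smaller than that (-0.14, -0.12 and -0.018), and SEs were 1.72 to 1.94 times as large. Here too the marker level did not overlap between the groups, so the fit cannot part it from the medium.

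**Figure D1:**
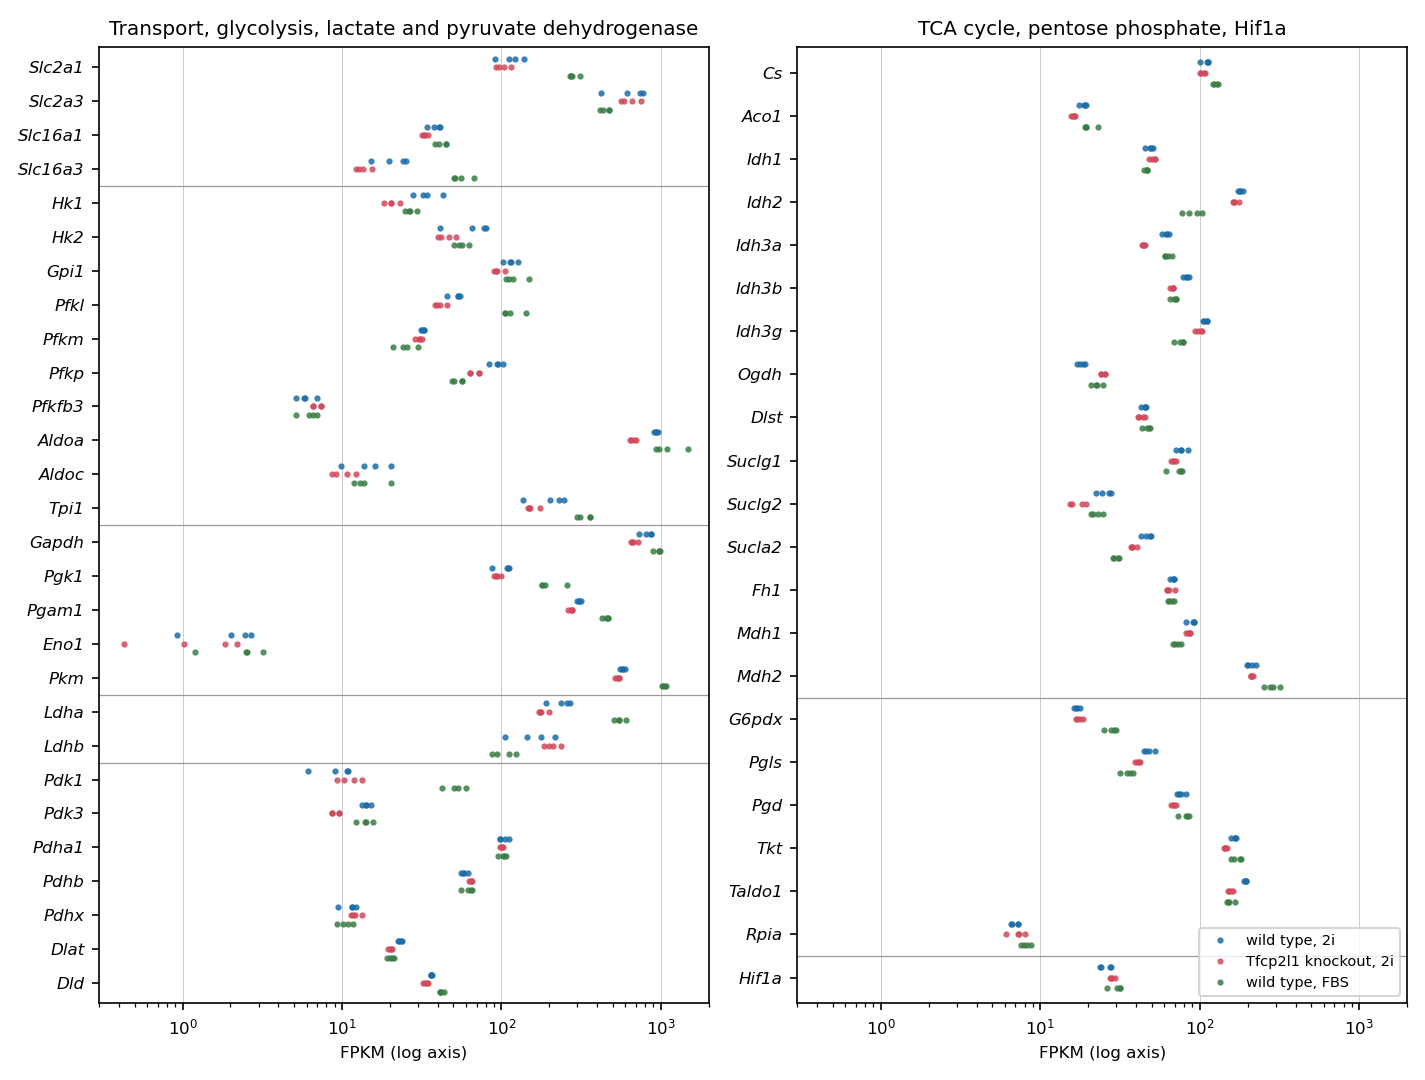
Level of each of the 50 genes in each of the 12 libraries, in FPKM on a log axis, with 1 point per library, coloured by group, and lines between pathway steps. The highest single values were those of Aldoa, Pkm and Gapdh in FBS, and the FBS points of Pdk1, Slc2a1, Slc16a3, Ldha and Pkm stood apart from those of both 2i groups. Eno1 is drawn from its own entry, which held little of the enolase FPKM.

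**Figure D2:**
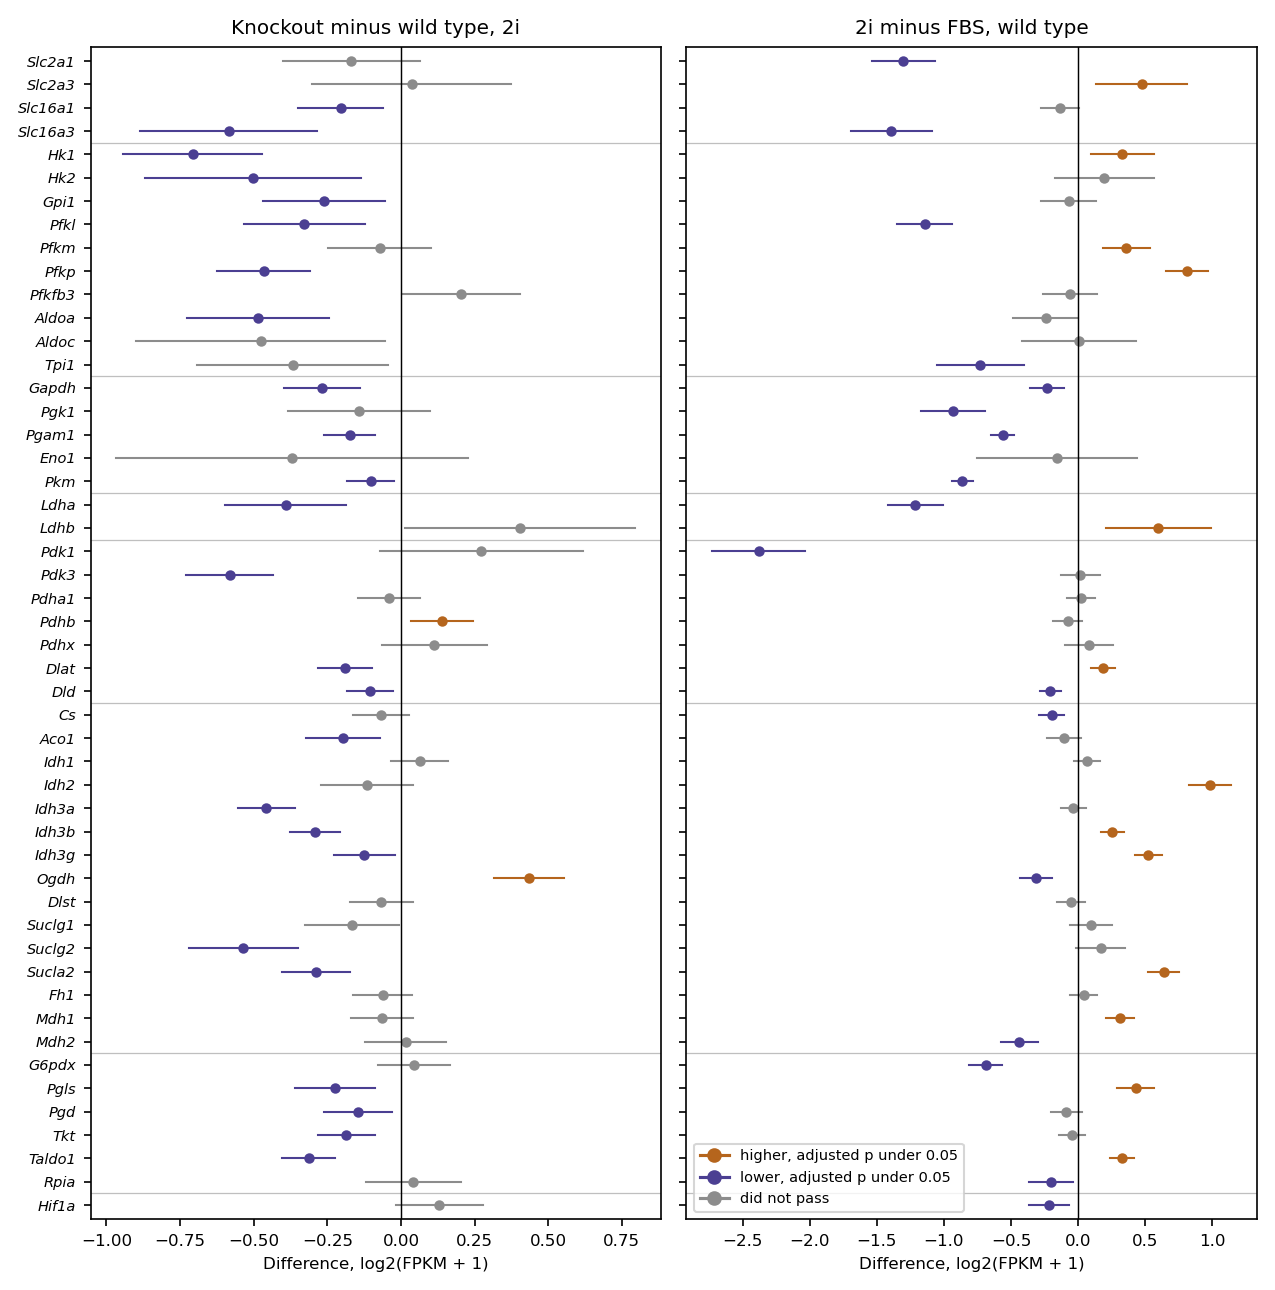
Log2 difference of each gene with its 95% confidence interval from the limma fit, for knockout minus wild type in 2i (left) and 2i minus FBS in wild type (right), on different x scales. Colour marks genes with an adjusted p under 0.05, of which 25 lie below 0 and 2 above it on the left, and 17 below and 13 above it on the right.

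The genes that differed most between the media are shown with the 200 bases before their annotated start site. Oxygen- and MYC-responsive control of glycolytic genes is known to act through short motifs, some of which hold ACGTG. The 4 members lowest in 2i relative to FBS were Pdk1 (chr2:71873024-71873223, plus strand), Slc16a3 (chr11:120948867-120949066, plus strand), Slc2a1 (chr4:119108545-119108744, plus strand) and Ldha (chr7:46845604-46845803, plus strand). The 2 highest in 2i were Idh2 (chr7:80115351-80115550, minus strand) and Pfkp (chr13:6648772-6648971, minus strand). Pdk1 and Ldha each have 2 annotated start sites, and only the window before the most upstream one is shown. Sequences and coordinates are from RefSeq (GRCm38.p6), written 5′ to 3′ on the gene's strand, and capitals mark ACGTG on either strand.
Pdk1: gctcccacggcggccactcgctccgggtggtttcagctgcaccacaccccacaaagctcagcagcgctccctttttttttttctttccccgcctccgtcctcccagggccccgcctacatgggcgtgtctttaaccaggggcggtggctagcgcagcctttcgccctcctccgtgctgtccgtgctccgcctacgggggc
Slc16a3: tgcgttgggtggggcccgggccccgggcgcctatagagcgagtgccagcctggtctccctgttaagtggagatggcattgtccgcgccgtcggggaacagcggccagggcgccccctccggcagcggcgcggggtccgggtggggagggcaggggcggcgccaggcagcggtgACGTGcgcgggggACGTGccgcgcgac
Slc2a1: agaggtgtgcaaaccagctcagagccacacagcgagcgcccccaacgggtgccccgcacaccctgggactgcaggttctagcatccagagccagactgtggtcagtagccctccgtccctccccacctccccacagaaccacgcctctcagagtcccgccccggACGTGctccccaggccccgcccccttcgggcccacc
Ldha: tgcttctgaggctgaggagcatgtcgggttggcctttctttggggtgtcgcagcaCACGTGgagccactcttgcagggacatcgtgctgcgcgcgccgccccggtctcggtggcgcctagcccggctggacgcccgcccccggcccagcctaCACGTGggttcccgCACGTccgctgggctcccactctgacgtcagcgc
Idh2: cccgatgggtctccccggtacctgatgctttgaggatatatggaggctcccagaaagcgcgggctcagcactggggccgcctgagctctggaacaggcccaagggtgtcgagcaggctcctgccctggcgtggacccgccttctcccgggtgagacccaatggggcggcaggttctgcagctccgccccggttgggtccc
Pfkp: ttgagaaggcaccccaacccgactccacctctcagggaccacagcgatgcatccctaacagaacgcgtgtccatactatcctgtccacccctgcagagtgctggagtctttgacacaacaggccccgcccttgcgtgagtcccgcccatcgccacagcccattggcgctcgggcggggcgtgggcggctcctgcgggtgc
The Ldha window held 5 matches, 4 of which form 2 copies of the palindrome CACGTG at -145 and -48 from the start site, with a single match at -34. Slc16a3 had 2 matches, at -27 and -14, and Slc2a1 had 1, at -36, whereas these windows of Pdk1, Idh2 and Pfkp had 0. In the full RefSeq promoter windows of 300 bases, ACGTG was found for 21 of the 48 members with an entry (43.8%), against 29.9% of the tested genes with an entry and 21.8% of all genes. It was found for 10 of 17 members lower in 2i than in FBS, 4 of 12 higher and 7 of 19 not called. CACGTG, which contains ACGTG, was found for 12.5% of members, 12.1% of tested genes and 8.09% of all genes. CCAG repeated in the same direction after 6 bases, a paired site that the CP2 family of factors is known to bind, was searched on both strands and found for 1 of 48 members (2.08%), 4.33% of tested genes and 3.94% of all genes. A match is a run of letters and says nothing of a bound factor. Variants of the oxygen-responsive motif other than ACGTG were not searched, so a window with 0 matches may still hold one.

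At the cell membrane, the glucose carrier Slc2a1 and the lactate carrier Slc16a3 were the members whose levels separated the media most among the 4 transport genes. Slc2a1 (GLUT1; chr4:118781350-118809934, mm9), the widely expressed glucose carrier, stood at 112, 139, 90.6 and 121 FPKM across the 4 wild-type 2i libraries. Slc2a1 was at 103, 115, 97.1 and 92.9 in the knockout libraries and at 271, 312, 274 and 279 in the FBS libraries. Every FBS library lay above every 2i library, and the knockout and wild-type 2i libraries overlapped. Mean Slc2a1 in FBS was 2.46 times that in 2i, with a log2 difference (2i minus FBS) of -1.30 ± 0.11, adjusted p = 2.48e-07; the knockout differed from wild type by -0.17 ± 0.11, adjusted p = 0.221. In the knockout Slc2a1 passed without wild-type 2i library 3 (adjusted p = 0.016). Slc16a3 (MCT4; chr11:120810381-120820314), a lactate exporter of glycolytic cells, stood at 19.7, 25.2, 15.3 and 24.2 FPKM across the 4 wild-type 2i libraries. Slc16a3 was at 12.8, 15.5, 13.5 and 12.3 in the knockout libraries and at 55.6, 51.5, 67.8 and 50.8 in the FBS libraries. The FBS libraries were again the highest, and the lowest wild-type 2i library lay inside the knockout range. Mean Slc16a3 in FBS was 2.67 times that in 2i (log2 difference -1.39 ± 0.14, adjusted p = 1.41e-06), and Slc16a3 fell in the knockout to 64.1% of wild type (-0.58 ± 0.14, adjusted p = 0.00456).

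The second carriers of glucose and of lactate were Slc2a3 and Slc16a1. Slc2a3 (GLUT3), a high-affinity glucose carrier and the most abundant of the 4, averaged 638 ± 158 FPKM in wild-type 2i, 642 ± 85.3 in knockout and 448 ± 26.8 in FBS libraries. It was higher in 2i than in FBS by 0.47 ± 0.16, adjusted p = 0.0153, although libraries overlapped. The Slc2a3 call did not hold without wild-type 2i library 2 (adjusted p = 0.0503), and with the chromosome 6 shift removed the difference was 0.35, adjusted p = 0.00898. Between knockout and wild type the difference was 0.037 ± 0.16, adjusted p = 0.866, with an interval of -0.30 to 0.38. Slc16a1 (MCT1), which carries lactate and pyruvate in both directions, averaged 38.4 ± 3.22 FPKM in wild-type 2i, 33.1 ± 1.29 in knockout and 42.2 ± 3.24 in FBS libraries and was lower in the knockout by -0.20 ± 0.066, adjusted p = 0.0237. The Slc16a1 call did not hold without wild-type 2i library 3 or 4 or knockout library 2 or 4 (adjusted p between 0.0528 and 0.072). Its medium difference did not pass (-0.13 ± 0.066, adjusted p = 0.0845). Between media Slc16a1 passed without wild-type 2i library 4 or FBS library 3 (adjusted p between 0.0301 and 0.0468). The summed FPKM of both glucose carriers overlapped between all groups (754 ± 177 in wild-type 2i, 744 ± 94.6 in the knockout and 732 ± 39.6 in FBS), whereas the Slc2a1 share of that sum was 15.6% ± 1.49, 13.8% ± 0.467 and 38.8% ± 1.51. For the lactate carriers both the sum and the Slc16a3 share separated FBS from wild-type 2i: sums were 59.5 ± 4.24 FPKM in wild-type 2i, 46.7 ± 1.44 in the knockout and 98.6 ± 5.10 in FBS. Of 11 further carriers, 4 were tested; Mpc1, Slc2a8, Mpc2 and Bsg were all higher in 2i than in FBS, and Mpc1 and Slc2a8 were lower in the knockout. Bsg, the chaperone of the monocarboxylate carriers, averaged 348 ± 26.2 FPKM in wild-type 2i, 316 ± 6.85 in knockout and 297 ± 31.8 in FBS libraries, and Slc2a8 averaged 13.3 ± 1.38 FPKM in wild-type 2i, 9.20 ± 0.576 in knockout and 7.07 ± 0.998 in FBS libraries.

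Of the 10 genes of upper glycolysis, from hexokinase to triose phosphate isomerase, 6 fell in the knockout, 0 rose and 4 did not pass, with a median log2 difference of -0.42. Between media 3 were higher in 2i, 2 were lower and 5 did not pass. Of all tested genes 21.4% were lower in the knockout, and between media 37.1% were higher and 35.3% lower in 2i. Hk1 (chr10:61731603-61803169), a hexokinase that traps glucose in the cell, stood at 34.4, 42.8, 27.8 and 32.5 FPKM across the 4 wild-type 2i libraries. Hk1 was at 18.3, 20.2, 20.5 and 23.0 in the knockout libraries and at 24.9, 26.8, 29.7 and 26.2 in the FBS libraries. All knockout libraries lay below all wild-type 2i libraries, and FBS overlapped wild-type 2i. Hk1 had the largest fall of the 50 genes, to 59.6% of wild type (log2 difference -0.71 ± 0.11, adjusted p = 0.000264), and was higher in 2i than in FBS by 0.33 ± 0.11, adjusted p = 0.0152. Hk2, the more abundant hexokinase, averaged 66.1 ± 17.9 FPKM in wild-type 2i, 45.1 ± 5.21 in knockout and 56.0 ± 5.02 in FBS libraries, with its lowest wild-type 2i value, 41.1 FPKM in library 3, inside the knockout range. It was lower in the knockout by -0.50 ± 0.17, adjusted p = 0.0284. The Hk2 call did not hold without wild-type 2i library 1, 2 or 4 or knockout library 3 or 4 (adjusted p between 0.0594 and 0.0847); with the chromosome 6 shift removed the difference was -0.36, adjusted p = 0.0208. Its difference between media, 0.19 ± 0.17, adjusted p = 0.315, did not pass. Between media Hk2 passed without wild-type 2i library 3 (adjusted p = 0.00257). Gpi1, glucose phosphate isomerase, averaged 115 ± 10.2 FPKM in wild-type 2i, 95.4 ± 6.52 in knockout and 121 ± 18.9 in FBS libraries and was lower in the knockout by -0.26 ± 0.10, adjusted p = 0.0414. The Gpi1 call did not hold without wild-type 2i library 1, 2 or 4, knockout library 1, 3 or 4 or FBS library 1 (adjusted p between 0.0532 and 0.115).

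The phosphofructokinase genes, whose products make the committed step of glycolysis, changed their proportions between the media. Pfkl (chr10:77449694-77472541), the liver-type subunit, stood at 53.8, 54.7, 45.7 and 53.7 FPKM across the 4 wild-type 2i libraries. Pfkl was at 41.1, 45.7, 39.5 and 38.4 in the knockout libraries and at 113, 106, 143 and 105 in the FBS libraries. The FBS libraries were all higher than the 2i libraries, and the highest knockout library reached but did not pass the lowest wild-type 2i library. Mean Pfkl in FBS was 2.25 times that in 2i (log2 difference -1.14 ± 0.095, adjusted p = 2.63e-07), and Pfkl fell in the knockout to 79.2% (-0.33 ± 0.095, adjusted p = 0.0137). Pfkp (chr13:6579120-6647970), the platelet-type subunit, stood at 94.4, 84.2, 103 and 95.9 FPKM across the 4 wild-type 2i libraries. Pfkp was at 72.0, 72.9, 63.7 and 63.2 in the knockout libraries and at 48.8, 50.8, 56.5 and 56.8 in the FBS libraries. Its order was the opposite between media, since every wild-type 2i library lay above every FBS library, and the knockout libraries lay between. The 2i mean was 1.77 times that of FBS (log2 difference 0.81 ± 0.072, adjusted p = 5.00e-07), and the knockout mean was 72.1% of wild type (-0.47 ± 0.072, adjusted p = 0.000281). Pfkm, the muscle-type subunit, averaged 32.1 ± 0.675 FPKM in wild-type 2i, 30.5 ± 1.24 in knockout and 25.1 ± 3.77 in FBS libraries and was higher in 2i by 0.36 ± 0.081, adjusted p = 0.00148; from its single highest RefSeq entry this was 0.036, adjusted p = 0.869, the division of reads between its 3 entries being the authors' estimate. The knockout difference of Pfkm was -0.072 ± 0.081, adjusted p = 0.492. As shares of the summed FPKM of the 3 genes, Pfkl made up 29.2% ± 2.71 in wild-type 2i, 29.5% ± 0.853 in the knockout and 59.7% ± 2.40 in FBS, and Pfkp 52.8% ± 3.24, 48.6% ± 1.06 and 27.5% ± 2.64. The sum itself overlapped between media (178 ± 4.63 FPKM in wild-type 2i and 195 ± 23.5 in FBS) and was lower in every knockout library (139.7 ± 8.88). Pfkfb3, which makes the activator fructose 2,6-bisphosphate, averaged 5.96 ± 0.772 FPKM in wild-type 2i, 6.99 ± 0.448 in knockout and 6.25 ± 0.781 in FBS libraries; neither difference passed (0.20 ± 0.092, adjusted p = 0.0885 in the knockout and -0.059 ± 0.092, adjusted p = 0.581 between media). In the knockout Pfkfb3 passed without wild-type 2i library 4 (adjusted p = 0.0281).

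Aldolase A had the highest mean level of the 50 genes in wild-type 2i and in FBS, and Gapdh had it in the knockout. Enolase entered this ranking only by the entry named Eno1, which held little of the enolase FPKM, so its place is uncertain. Aldoa (chr7:133938748-133942768) stood at 903, 934, 929 and 964 FPKM across the 4 wild-type 2i libraries. Aldoa was at 679, 699.8, 651 and 638 in the knockout libraries and at 1089.5, 982, 1489.8 and 932 in the FBS libraries. The knockout libraries were all lower than the wild-type 2i libraries, and FBS library 3 was far above the other 3 FBS libraries. Aldoa fell in the knockout to 71.5% (-0.48 ± 0.11, adjusted p = 0.00375, and -0.30, adjusted p = 0.0392 with quantile normalization). Between media the difference was -0.24 ± 0.11, adjusted p = 0.0653 and did not pass. Between media Aldoa passed without FBS library 2 or 4 (adjusted p between 0.0188 and 0.039), while without FBS library 3 it was -0.10, adjusted p = 0.119. Aldoc, a second aldolase, made up 1.05% to 2.12% of the aldolase sum and averaged 15.0 ± 4.30 FPKM in wild-type 2i, 10.3 ± 1.64 in knockout and 14.8 ± 3.85 in FBS libraries, with log2 differences of -0.48 ± 0.20, adjusted p = 0.0632 in the knockout and 0.0077 ± 0.20, adjusted p = 0.973 between media. In the knockout Aldoc passed without wild-type 2i library 3 or FBS library 3 (adjusted p between 0.00906 and 0.038). Tpi1 (chr6:124760610-124764314), triose phosphate isomerase, stood at 203, 248, 136 and 231 FPKM across the 4 wild-type 2i libraries. Tpi1 was at 150.3, 175, 148 and 146 in the knockout libraries and at 358, 312, 361 and 299.8 in the FBS libraries. The FBS libraries lay above all others, and the lowest wild-type 2i library, number 3, lay below every knockout library. Mean Tpi1 in FBS was 1.63 times that in 2i (log2 difference -0.73 ± 0.15, adjusted p = 0.000704, and -0.86, adjusted p = 1.30e-05 with the chromosome 6 shift removed). The knockout difference, -0.37 ± 0.15, adjusted p = 0.0616, did not pass. In the knockout Tpi1 passed without wild-type 2i library 3 (adjusted p = 0.000401).

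The 26 other genes of glycolysis and gluconeogenesis that were examined included 16 tested ones. In the knockout 2 were higher and 5 lower, with a median log2 difference of -0.037, and between media 7 were higher and 5 lower in 2i, with a median of 0.25. Pgm2, a phosphoglucomutase-family enzyme, averaged 41.0 ± 1.03 FPKM in wild-type 2i, 20.8 ± 0.860 in knockout and 20.6 ± 1.17 in FBS libraries, a log2 difference of -0.95 ± 0.047, adjusted p = 3.46e-08 in the knockout and 0.96 ± 0.047, adjusted p = 3.05e-09 between media. Pgm1, which joins glycogen and glycolysis, averaged 20.4 ± 1.01 FPKM in wild-type 2i, 13.4 ± 1.24 in knockout and 33.9 ± 7.74 in FBS libraries and thus lay lowest in the knockout and highest in FBS (-0.58 ± 0.12, adjusted p = 0.00195 and -0.68 ± 0.12, adjusted p = 0.000206). Pcx, pyruvate carboxylase, fell in the knockout (-0.68 ± 0.075, adjusted p = 2.03e-05). Pck2, the mitochondrial phosphoenolpyruvate carboxykinase, averaged 29.6 ± 3.23 FPKM in wild-type 2i, 34.5 ± 1.95 in knockout and 9.86 ± 2.59 in FBS libraries and was higher in 2i than in FBS by 1.52 ± 0.14, adjusted p = 6.31e-07. Adpgk, an ADP-dependent glucokinase, was higher in 2i (0.56 ± 0.053, adjusted p = 8.75e-07) and differed by -0.0061 ± 0.053, adjusted p = 0.935 in the knockout, and Eno2 differed by 0.34 ± 0.15, adjusted p = 0.0554 between media.

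In lower glycolysis, the steps that yield ATP, 3 of 5 genes fell in the knockout and 0 rose, and 4 of 5 were lower in 2i than in FBS. Among all tested genes 21.4% were lower in the knockout and 35.3% lower in 2i. Gapdh (chr6:125111870-125115601), glyceraldehyde phosphate dehydrogenase, stood at 804, 865, 731 and 869 FPKM across the 4 wild-type 2i libraries. Gapdh was at 673, 724, 664 and 649 in the knockout libraries and at 975, 971, 898 and 994 in the FBS libraries. The groups did not overlap in either comparison. Gapdh fell in the knockout to 82.9% (-0.27 ± 0.059, adjusted p = 0.00294, but -0.11, adjusted p = 0.0862 with quantile normalization) and was lower in 2i than in FBS by -0.23 ± 0.059, adjusted p = 0.00318; with the chromosome 6 shift removed these were -0.13, adjusted p = 0.016 and -0.36, adjusted p = 2.31e-06. Pgk1 (chrX:103382463-103399038), phosphoglycerate kinase, stood at 109, 112, 87.1 and 108 FPKM across the 4 wild-type 2i libraries. Pgk1 was at 94.2, 99.7, 92.3 and 89.3 in the knockout libraries and at 187, 180.0, 259 and 180.4 in the FBS libraries. Every FBS library was higher than every 2i library, with FBS library 3 the highest and wild-type 2i library 3 the lowest. Mean Pgk1 in FBS was 1.93 times that in 2i (log2 difference -0.93 ± 0.11, adjusted p = 6.84e-06), and the knockout difference was -0.14 ± 0.11, adjusted p = 0.312. Pgam1, phosphoglycerate mutase, averaged 307 ± 7.57 FPKM in wild-type 2i, 272 ± 7.79 in knockout and 454 ± 20.1 in FBS libraries, with no overlap in either comparison (-0.17 ± 0.040, adjusted p = 0.00379 in the knockout and -0.56 ± 0.040, adjusted p = 7.08e-08 between media).

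Pkm (chr9:59504175-59527182), pyruvate kinase, stood at 580.2, 575, 555 and 595 FPKM across the 4 wild-type 2i libraries. Pkm was at 546, 549, 533 and 518 in the knockout libraries and at 1019.8, 1029, 1078 and 1069 in the FBS libraries. The FBS values were close to each other and lay far above the 2i values, and the knockout libraries were all below wild-type 2i. Mean Pkm in FBS was 1.82 times that in 2i (log2 difference -0.86 ± 0.037, adjusted p = 8.65e-10). In the knockout it stood at 93.1% of wild type (-0.10 ± 0.037, adjusted p = 0.0388, but -0.031, adjusted p = 0.54 with quantile normalization). The Pkm call did not hold without wild-type 2i library 1, 2 or 4 or knockout library 1, 3 or 4 (adjusted p between 0.0583 and 0.113). The RefSeq entry NM_011099, the M2 splice form that dominates in proliferating cells, held 90.4 ± 1.25% of the Pkm FPKM in wild-type 2i, 89.1 ± 2.47% in the knockout and 91.4 ± 1.41% in FBS, and the groups overlapped. Enolase could not be read from its own entry. The entry named Eno1 averaged 2.02 ± 0.782 FPKM in wild-type 2i, 1.38 ± 0.799 in knockout and 2.36 ± 0.835 in FBS libraries, whereas an entry over the same stretch of chromosome 4 (chr4:149611433-149622982, mm9) carries the RefSeq transcript of the near-identical intronless copy Eno1b and held 202 ± 12.8, 217 ± 22.0 and 439 ± 21.0 FPKM. A further Eno1b entry, at another place in the genome, held more, at 515 ± 27.5, 571 ± 48.9 and 1177 ± 60.0 FPKM. Reads of these copies cannot be told apart, so enolase is uncertain. Summed over both entries of the Eno1 locus and without the further entry, an alternative chosen after seeing the data, Eno1 averaged 204 ± 12.3 FPKM in wild-type 2i, 219 ± 21.7 in the knockout and 441 ± 21.7 in FBS, a log2 difference of 0.10 (adjusted p = 0.266) for the knockout and -1.11 (adjusted p = 1.99e-08) between media. From its own entry alone the differences were -0.37 ± 0.27, adjusted p = 0.292 and -0.16 ± 0.27, adjusted p = 0.621.

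The lactate dehydrogenase subunits separated all 3 groups by their proportion. Ldha (chr7:54101174-54110997), the subunit that favours lactate formation, stood at 236, 259.5, 191 and 269.8 FPKM across the 4 wild-type 2i libraries. Ldha was at 177, 200.0, 175 and 172 in the knockout libraries and at 548, 512, 604 and 547 in the FBS libraries. The FBS libraries lay above all 2i libraries, and wild-type 2i library 3 lay inside the knockout range. Mean Ldha in FBS was 2.31 times that in 2i (log2 difference -1.21 ± 0.094, adjusted p = 1.47e-07), and Ldha fell in the knockout to 75.6% (-0.39 ± 0.094, adjusted p = 0.00497). Ldhb, the subunit that favours pyruvate formation, ranged from 106 to 218 FPKM in wild-type 2i, 186 to 237 in the knockout and 87.7 to 123 in FBS. Wild-type 2i overlapped both other groups. Ldhb was higher in 2i than in FBS by 0.60 ± 0.18, adjusted p = 0.00945; its knockout difference, 0.40 ± 0.18, adjusted p = 0.0844, did not pass. In the knockout Ldhb passed without wild-type 2i library 2 (adjusted p = 0.015), and it was 0.54, adjusted p = 0.0152 with the chromosome 6 shift removed. The Ldha share of the Ldha and Ldhb sum was 60.2% ± 5.33 in wild-type 2i, 46.5% ± 1.27 in the knockout and 84.2% ± 1.30 in FBS. No library of one group overlapped another in this share, which rested on wild-type values between 54.3% and 65.1%. The summed level overlapped between knockout and wild type (389 ± 33.6 and 401 ± 75.4 FPKM) and was 657 ± 53.1 in FBS.

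**Figure D3:**
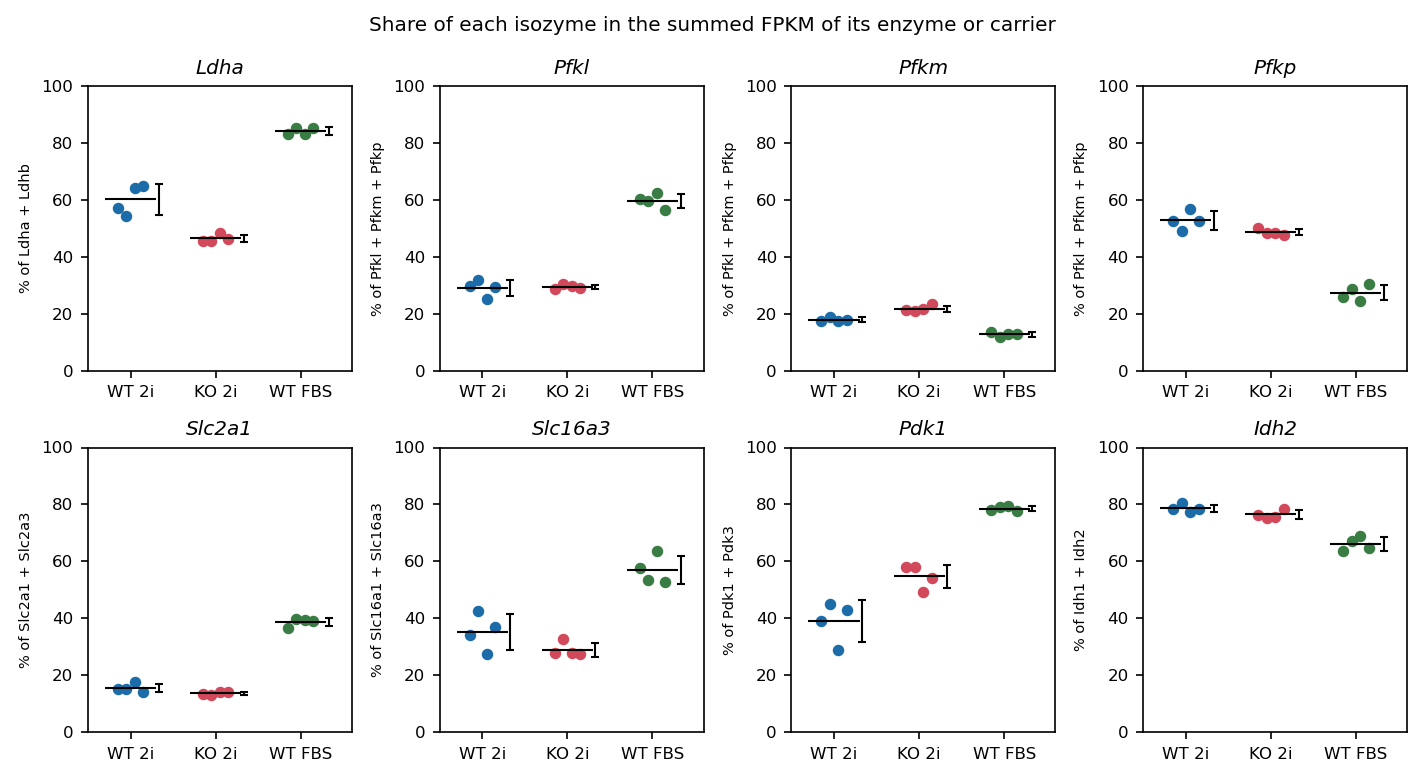
Share of 1 isozyme in the summed FPKM of the members of its enzyme or carrier, as a percent. Each panel has 1 point per library, a line at the mean and a bar of ± 1 SD for each group of 4. Isozymes outside the list of members are not in these sums. The Pdk1 share is thus that of Pdk1 and Pdk3 alone, without Pdk2 and Pdk4. FBS stood apart from both 2i groups in all 8 panels, and the knockout stood apart from wild-type 2i for Ldha, Pfkm and Pdk1. Not every enzyme is shown. The hexokinase and aldolase shares overlapped between media (Hk1 at 29.3% to 40.3% in wild-type 2i and 28.5% to 37.0% in FBS). Those of the succinyl-CoA ligase beta subunits and malate dehydrogenase, also not shown, did not overlap between media.

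At the pyruvate dehydrogenase complex, the kinase Pdk1 was lower in 2i than in FBS and the kinase Pdk3 fell in the knockout. Pdk1 (chr2:71711329-71741915), a kinase that inactivates the complex, stood at 9.09, 11.0, 6.17 and 10.7 FPKM across the 4 wild-type 2i libraries. Pdk1 was at 11.97, 13.3, 9.35 and 10.3 in the knockout libraries and at 50.6, 53.4, 60.2 and 42.6 in the FBS libraries. All FBS libraries lay far above all 2i libraries, which overlapped each other. Mean Pdk1 in FBS was 5.59 times that in 2i (log2 difference -2.38 ± 0.16, adjusted p = 3.87e-08), the largest difference of the 50 genes between media; the knockout difference was 0.27 ± 0.16, adjusted p = 0.18 and did not pass. Pdk3 (chrX:91009955-91077434), a second kinase, stood at 14.1, 13.3, 15.2 and 14.1 FPKM across the 4 wild-type 2i libraries. Pdk3 was at 8.71, 9.62, 9.57 and 8.71 in the knockout libraries and at 14.3, 14.0, 15.7 and 12.3 in the FBS libraries. Every knockout library was lower than every wild-type library of either medium. Pdk3 fell in the knockout to 64.5% (-0.58 ± 0.068, adjusted p = 3.29e-05), and between media it differed by 0.016 ± 0.068, adjusted p = 0.841, with an interval of -0.13 to 0.16. Of the summed Pdk1 and Pdk3 level, Pdk1 made up 39.1% ± 7.25 in wild-type 2i and 54.9% ± 4.07 in the knockout. In FBS its share was 78.5% ± 0.875. The sum was 23.4 ± 1.54 FPKM in wild-type 2i, 20.4 ± 1.89 in the knockout and 65.7 ± 8.63 in FBS. The kinases Pdk2 and Pdk4, described below, are not members and are not in this sum. The values are therefore not shares of all kinases of the complex.

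Among the 5 subunit genes, Dlat and Dld fell in the knockout and Pdhb rose, each by less than 0.2 on the log2 scale. Dlat, the acetyltransferase core, averaged 23.1 ± 0.666 FPKM in wild-type 2i, 20.1 ± 0.507 in knockout and 20.2 ± 0.855 in FBS libraries (-0.19 ± 0.042, adjusted p = 0.00303 in the knockout and 0.18 ± 0.042, adjusted p = 0.00157 between media). Dld, the lipoamide dehydrogenase shared with the oxoglutarate complex, averaged 36.2 ± 0.323 FPKM in wild-type 2i, 33.7 ± 1.03 in knockout and 42.0 ± 1.20 in FBS libraries (-0.10 ± 0.036, adjusted p = 0.0326 and -0.21 ± 0.036, adjusted p = 0.000186). The Dld call in the knockout did not hold without wild-type 2i library 1, 2 or 4 or knockout library 3 or 4 (adjusted p between 0.0531 and 0.0985). Pdhb, the beta subunit of the decarboxylase, averaged 58.4 ± 2.29 FPKM in wild-type 2i, 64.4 ± 0.991 in knockout and 61.8 ± 4.21 in FBS libraries (0.14 ± 0.049, adjusted p = 0.0334 in the knockout). The Pdhb call did not hold without wild-type 2i library 1, 2 or 4 or knockout library 1, 2 or 3 (adjusted p between 0.0623 and 0.0876). Nor did it hold with the replicate number as a block (adjusted p = 0.0597). Its medium difference, -0.079 ± 0.049, adjusted p = 0.162, did not pass. Between media Pdhb passed without FBS library 3 (adjusted p = 0.0136). Pdha1, the alpha subunit, averaged 103 ± 6.61 FPKM in wild-type 2i, 100.4 ± 1.92 in knockout and 102 ± 4.80 in FBS libraries and did not pass in either comparison, with intervals of -0.15 to 0.065 for the knockout and -0.087 to 0.12 between media. Pdhx, the E3-binding protein, averaged 11.2 ± 1.17 FPKM in wild-type 2i, 12.2 ± 0.887 in knockout and 10.5 ± 0.994 in FBS libraries, with intervals of -0.065 to 0.29 and -0.10 to 0.26.

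At the same branch point, of 9 further regulators 8 were tested: in the knockout 1 was higher and 5 were lower, and between media 4 were higher and 1 lower in 2i. Pdp2, a phosphatase that reactivates the complex, stood at 18.0, 15.7, 24.6 and 20.4 FPKM across the 4 wild-type 2i libraries. Pdp2 was at 7.79, 6.64, 8.75 and 6.49 in the knockout libraries and at 3.11, 3.47, 3.27 and 3.98 in the FBS libraries. The 3 groups did not overlap. Its log2 difference was -1.29 ± 0.12, adjusted p = 7.00e-06 in the knockout and 2.20 ± 0.12, adjusted p = 9.04e-09 between media. Mpc1, a subunit of the mitochondrial pyruvate carrier, stood at 15.9, 16.7, 15.0 and 13.9 FPKM across the 4 wild-type 2i libraries. Mpc1 was at 4.41, 5.06, 4.67 and 3.75 in the knockout libraries and at 1.68, 1.59, 1.85 and 2.11 in the FBS libraries. Here too the groups did not overlap, and the log2 differences were -1.59 ± 0.086, adjusted p = 6.31e-08 and 2.55 ± 0.086, adjusted p = 1.32e-10. Mpc2, its partner, averaged 14.8 ± 0.932 FPKM in wild-type 2i, 14.1 ± 0.482 in knockout and 9.23 ± 1.33 in FBS libraries; it was higher in 2i than in FBS (0.63 ± 0.079, adjusted p = 9.92e-06) and differed by -0.061 ± 0.079, adjusted p = 0.553 in the knockout. Pdk2 averaged 5.60 ± 1.21 FPKM in wild-type 2i, 3.84 ± 0.233 in knockout and 2.52 ± 0.459 in FBS libraries and was lower in the knockout (-0.43 ± 0.13, adjusted p = 0.0154) and higher in 2i than in FBS (0.90 ± 0.13, adjusted p = 3.33e-05), the opposite side of the media from Pdk1. Pdpr, a regulator of the phosphatase, fell in the knockout (-0.40 ± 0.083, adjusted p = 0.00198). Lipt1, a lipoyltransferase, was lower in 2i than in FBS (-0.70 ± 0.086, adjusted p = 8.93e-06). Among genes that did not pass, Lias differed by -0.061 ± 0.080, adjusted p = 0.561 in the knockout and Pdk4 by 0.38 ± 0.16, adjusted p = 0.0543 between media.

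**Figure D4:**
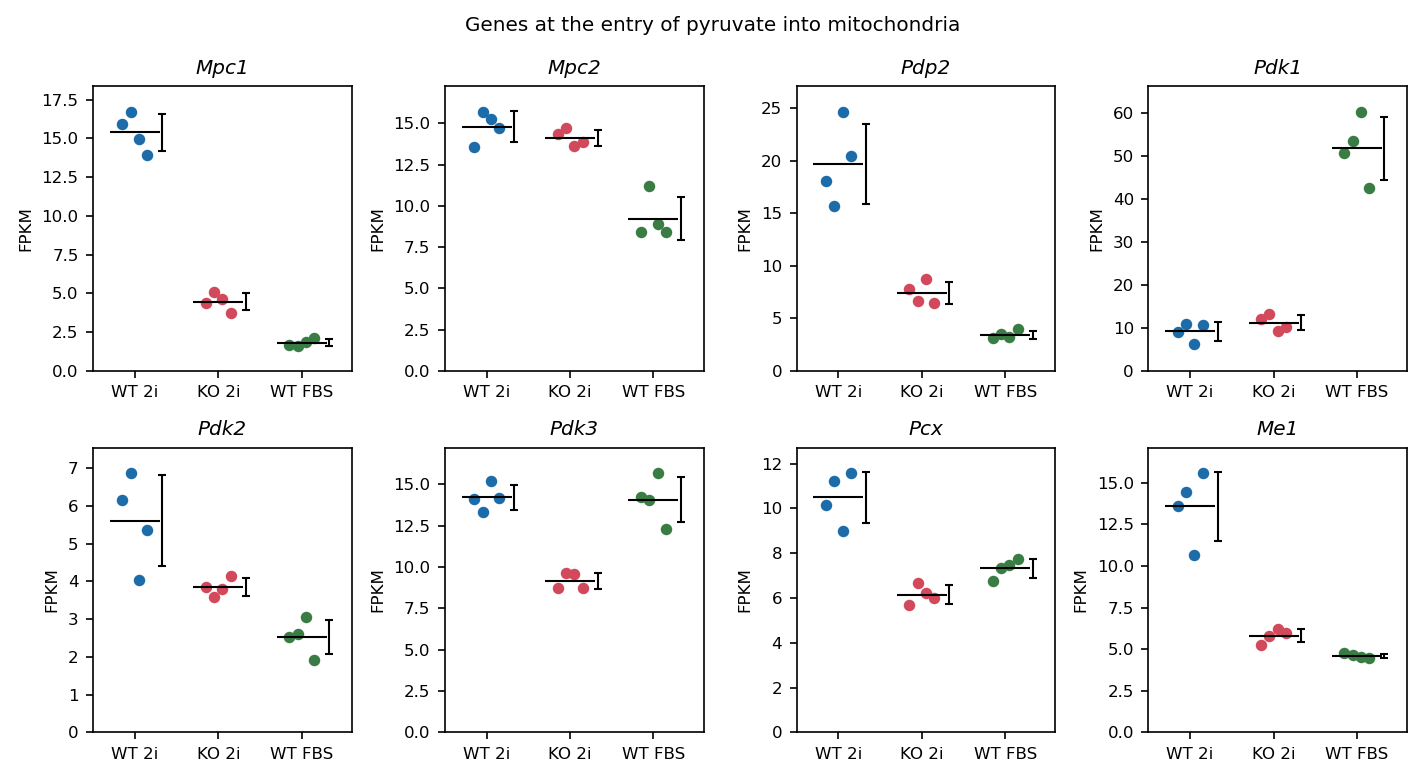
FPKM of 8 genes at or near the entry of pyruvate into mitochondria, with the cytosolic malic enzyme Me1 among them. Not every gene of this branch point is shown. Each panel has 1 point per library, a line at the mean and a bar of ± 1 SD for each group of 4. The y axes start at 0 and differ between panels. Mpc1 and Pdp2 fell from wild-type 2i to the knockout and were lowest in FBS, whereas Pdk1 was highest in FBS, at 51.7 ± 7.29 FPKM.

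Of the 15 genes of the TCA cycle and its cytosolic counterparts, 6 fell in the knockout, 1 rose and 8 did not pass, with a median log2 difference of -0.11. Between media 5 were higher and 3 lower in 2i. Of all tested genes 24.0% were higher and 21.4% lower in the knockout, and 37.1% were higher and 35.3% lower in 2i. The 3 subunits of the NAD-dependent isocitrate dehydrogenase, which makes oxoglutarate inside mitochondria, all fell in the knockout. Idh3a (chr9:54434318-54452469), the catalytic alpha subunit, stood at 62.9, 64.1, 57.7 and 61.7 FPKM across the 4 wild-type 2i libraries. Idh3a was at 44.3, 43.8, 44.6 and 45.7 in the knockout libraries and at 60.9, 67.4, 63.6 and 60.9 in the FBS libraries. The knockout libraries lay within 2 FPKM of each other and below all wild-type libraries of both media. Idh3a fell to 72.4% (-0.46 ± 0.044, adjusted p = 7.14e-06) and differed by -0.036 ± 0.044, adjusted p = 0.481 between media. Idh3b (chr2:130105045-130110187) stood at 86.0, 82.8, 78.9 and 82.4 FPKM across the 4 wild-type 2i libraries. Idh3b was at 64.8, 67.7, 68.1 and 68.0 in the knockout libraries and at 65.7, 70.7, 70.7 and 69.2 in the FBS libraries. Wild-type 2i lay above both other groups without overlap. Idh3b fell in the knockout to 81.4% (-0.29 ± 0.039, adjusted p = 8.67e-05) and was higher in 2i than in FBS by 0.25 ± 0.039, adjusted p = 6.45e-05. Idh3g averaged 108 ± 3.20 FPKM in wild-type 2i, 99.4 ± 3.99 in knockout and 75.1 ± 4.47 in FBS libraries and was higher in 2i by 0.52 ± 0.048, adjusted p = 6.05e-07; its knockout difference was -0.12 ± 0.048, adjusted p = 0.0495. The Idh3g call did not hold without wild-type 2i library 1, 2 or 4, knockout library 1, 2, 3 or 4 or FBS library 1 or 2 (adjusted p between 0.0514 and 0.146).

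Of the NADP-dependent isocitrate dehydrogenases, Idh2 differed between media, and neither gene passed in the knockout. Idh2 (chr7:87239734-87260236), the mitochondrial enzyme, stood at 179.6, 187, 175 and 179 FPKM across the 4 wild-type 2i libraries. Idh2 was at 164, 161, 164 and 176 in the knockout libraries and at 78.1, 95.9, 104 and 86.3 in the FBS libraries. Every 2i library of either genotype lay above every FBS library. The 2i mean was 1.98 times that of FBS (log2 difference 0.98 ± 0.072, adjusted p = 8.29e-08), the largest excess in 2i among the 50 genes, and the knockout difference was -0.11 ± 0.072, adjusted p = 0.211. Idh1, the cytosolic enzyme, averaged 48.7 ± 2.35 FPKM in wild-type 2i, 51.0 ± 2.22 in knockout and 46.4 ± 1.20 in FBS libraries, with intervals of -0.034 to 0.16 for the knockout and -0.030 to 0.17 between media. Idh2 thus made up 78.7% ± 1.25 of both in wild-type 2i, 76.5% ± 1.44 in the knockout and 66.1% ± 2.39 in FBS.

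Ogdh (chr11:6191600-6259097), the decarboxylase of the oxoglutarate complex, was the member that rose most in the knockout. It stood at 17.8, 18.5, 16.9 and 19.1 FPKM across the 4 wild-type 2i libraries. Ogdh was at 25.4, 25.6, 24.1 and 24.0 in the knockout libraries and at 22.4, 22.8, 20.9 and 24.8 in the FBS libraries. The wild-type 2i libraries were the lowest of the 12. Ogdh rose to 137% of wild type (0.44 ± 0.055, adjusted p = 5.76e-05) and was lower in 2i than in FBS by -0.31 ± 0.055, adjusted p = 0.000203. Dlst, the core of the same complex, averaged 45.0 ± 1.61 FPKM in wild-type 2i, 43.0 ± 2.14 in knockout and 46.8 ± 2.43 in FBS libraries, with intervals of -0.17 to 0.040 and -0.16 to 0.053. Ogdhl, a close relative of Ogdh outside the list of 50, averaged 60.4 ± 6.17 FPKM in wild-type 2i, 48.6 ± 2.04 in knockout and 31.2 ± 3.91 in FBS libraries and moved the other way (-0.30 ± 0.086, adjusted p = 0.0119 in the knockout and 0.93 ± 0.086, adjusted p = 6.78e-07 between media).

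The beta subunits of succinyl-CoA ligase, which set whether the step makes GTP or ATP, both fell in the knockout. Suclg2 (chr6:95424128-95668831), the GTP-forming subunit, stood at 24.4, 27.9, 22.6 and 27.0 FPKM across the 4 wild-type 2i libraries. Suclg2 was at 18.4, 19.4, 15.8 and 15.5 in the knockout libraries and at 24.6, 21.5, 20.8 and 23.2 in the FBS libraries. The knockout libraries were all below wild-type 2i, which overlapped FBS. Suclg2 fell to 67.8% (-0.54 ± 0.085, adjusted p = 0.000334, and -0.40, adjusted p = 0.000174 with the chromosome 6 shift removed); between media it differed by 0.17 ± 0.085, adjusted p = 0.0953. Between media Suclg2 passed without wild-type 2i library 3 (adjusted p = 0.0332). Sucla2 (chr14:73952593-73995949), the ATP-forming subunit, stood at 46.0, 42.7, 49.9 and 49.1 FPKM across the 4 wild-type 2i libraries. Sucla2 was at 36.9, 37.8, 40.2 and 37.9 in the knockout libraries and at 28.9, 30.6, 28.5 and 31.2 in the FBS libraries. The 3 groups did not overlap, with wild-type 2i highest and FBS lowest. Sucla2 fell in the knockout to 81.4% (-0.29 ± 0.053, adjusted p = 0.000951), and the 2i mean was 1.58 times that of FBS (0.64 ± 0.053, adjusted p = 2.81e-07). Suclg1, their common alpha subunit, averaged 77.3 ± 5.64 FPKM in wild-type 2i, 68.7 ± 2.36 in knockout and 72.4 ± 7.71 in FBS libraries and did not pass in either comparison (-0.17 ± 0.073, adjusted p = 0.081 and 0.10 ± 0.073, adjusted p = 0.254). In the knockout Suclg1 passed without wild-type 2i library 3 or FBS library 3 (adjusted p between 0.018 and 0.0426); with the chromosome 6 shift removed the knockout difference was -0.026, adjusted p = 0.711.

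Among the remaining TCA cycle members, Mdh2, the mitochondrial malate dehydrogenase and the most abundant of them, averaged 209 ± 12.6 FPKM in wild-type 2i, 212 ± 3.97 in knockout and 285 ± 28.0 in FBS libraries and was lower in 2i than in FBS (-0.44 ± 0.064, adjusted p = 4.04e-05), while the cytosolic Mdh1 averaged 89.4 ± 5.09 FPKM in wild-type 2i, 85.3 ± 2.38 in knockout and 71.8 ± 3.45 in FBS libraries and was higher in 2i (0.31 ± 0.048, adjusted p = 7.58e-05). Neither passed in the knockout, with intervals of -0.12 to 0.15 and -0.17 to 0.040. Cs, citrate synthase, averaged 109 ± 5.57 FPKM in wild-type 2i, 104 ± 3.65 in knockout and 126 ± 4.03 in FBS libraries and was lower in 2i (-0.20 ± 0.044, adjusted p = 0.00132); its knockout difference was -0.069 ± 0.044, adjusted p = 0.225. In the knockout Cs passed without wild-type 2i library 3 (adjusted p = 0.0425). Aco1, the cytosolic aconitase that also binds RNA in iron control, averaged 18.7 ± 0.818 FPKM in wild-type 2i, 16.2 ± 0.384 in knockout and 20.2 ± 1.81 in FBS libraries and fell in the knockout (-0.20 ± 0.058, adjusted p = 0.0152). Fh1, fumarate hydratase, averaged 67.9 ± 2.17 FPKM in wild-type 2i, 65.1 ± 3.72 in knockout and 65.9 ± 2.53 in FBS libraries and passed in neither comparison, with intervals of -0.16 to 0.039 and -0.058 to 0.14. Of 23 other genes of the cycle and of anaplerosis, 22 were tested: in the knockout 3 were higher and 12 lower (median -0.16), and between media 12 were higher and 6 lower in 2i (median 0.15). The 4 succinate dehydrogenase genes were all among those that were lower in the knockout and higher in 2i than in FBS, from -0.13 ± 0.043, adjusted p = 0.0245 for Sdhb to -0.37 ± 0.063, adjusted p = 0.000531 for Sdhc in the knockout. Me1, the cytosolic malic enzyme, averaged 13.6 ± 2.09 FPKM in wild-type 2i, 5.82 ± 0.403 in knockout and 4.58 ± 0.124 in FBS libraries (-1.09 ± 0.091, adjusted p = 2.43e-06 and 1.37 ± 0.091, adjusted p = 3.69e-08). Slc25a1, the citrate carrier, fell in the knockout (-0.55 ± 0.047, adjusted p = 3.01e-06). Slc25a12, an aspartate-glutamate carrier, averaged 9.65 ± 0.202 FPKM in wild-type 2i, 11.9 ± 0.506 in knockout and 19.6 ± 2.13 in FBS libraries and was lower in 2i than in FBS (-0.95 ± 0.067, adjusted p = 6.30e-08). Got1, which did not pass in either comparison, differed by 0.16 ± 0.067, adjusted p = 0.0647 and -0.11 ± 0.067, adjusted p = 0.159.

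In the pentose phosphate pathway 4 of 6 genes fell in the knockout and 0 rose, and between media 2 were higher and 2 lower in 2i. Over all tested genes 21.4% were lower in the knockout, and between media 37.1% were higher and 35.3% lower in 2i. G6pdx (chrX:71654825-71674500), glucose 6-phosphate dehydrogenase, the entry to the oxidative branch, stood at 16.2, 16.7, 17.1 and 17.9 FPKM across the 4 wild-type 2i libraries. G6pdx was at 16.8, 17.8, 17.1 and 18.5 in the knockout libraries and at 27.8, 29.0, 25.2 and 30.0 in the FBS libraries. Both 2i groups overlapped each other and lay below all FBS libraries. Mean G6pdx in FBS was 1.65 times that in 2i (log2 difference -0.69 ± 0.056, adjusted p = 2.29e-07), and the knockout difference was 0.045 ± 0.056, adjusted p = 0.54, with an interval of -0.077 to 0.17. The next 2 oxidative enzymes fell in the knockout: Pgls, the lactonase, averaged 48.0 ± 3.49 FPKM in wild-type 2i, 41.0 ± 1.24 in knockout and 35.5 ± 2.89 in FBS libraries (-0.22 ± 0.063, adjusted p = 0.0118) and was higher in 2i than in FBS (0.43 ± 0.063, adjusted p = 4.44e-05). Pgd, which releases carbon dioxide, averaged 76.1 ± 4.24 FPKM in wild-type 2i, 68.6 ± 1.85 in knockout and 81.0 ± 5.32 in FBS libraries (-0.15 ± 0.053, adjusted p = 0.0383). The Pgd call did not hold without wild-type 2i library 1 or 4 or knockout library 1, 2 or 3 (adjusted p between 0.0623 and 0.115). Its difference between media, -0.088 ± 0.053, adjusted p = 0.148, did not pass. Between media Pgd passed without FBS library 3 (adjusted p = 0.018).

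Taldo1 (chr7:148578059-148588875), the transaldolase of the non-oxidative branch, stood at 191, 197, 196 and 192 FPKM across the 4 wild-type 2i libraries. Taldo1 was at 153, 151, 162 and 158 in the knockout libraries and at 149, 168, 151 and 152 in the FBS libraries. Wild-type 2i was above both other groups without overlap. Taldo1 fell in the knockout to 80.4% (-0.31 ± 0.042, adjusted p = 8.77e-05) and was higher in 2i than in FBS by 0.33 ± 0.042, adjusted p = 1.33e-05. Tkt, transketolase, averaged 165 ± 4.47 FPKM in wild-type 2i, 145 ± 2.28 in knockout and 170.3 ± 10.9 in FBS libraries; it fell in the knockout (-0.19 ± 0.045, adjusted p = 0.00481) and differed by -0.045 ± 0.045, adjusted p = 0.377 between media. Rpia, ribose phosphate isomerase, averaged 6.93 ± 0.357 FPKM in wild-type 2i, 7.19 ± 0.822 in knockout and 8.12 ± 0.522 in FBS libraries and did not pass in the knockout (0.042 ± 0.074, adjusted p = 0.67). It was lower in 2i than in FBS by -0.20 ± 0.074, adjusted p = 0.0267. The Rpia call did not hold without wild-type 2i library 1 or 3 or FBS library 2 or 4 (adjusted p between 0.0583 and 0.0733). Of 11 other genes of the pathway and of ribose phosphate, 7 were tested, of which 1 was higher and 2 lower in the knockout and 5 were higher and 1 lower in 2i. Rpe, ribulose phosphate epimerase, averaged 38.7 ± 1.66 FPKM in wild-type 2i, 30.4 ± 1.41 in knockout and 24.1 ± 1.33 in FBS libraries (-0.34 ± 0.050, adjusted p = 0.0002 and 0.66 ± 0.050, adjusted p = 1.15e-07). Tigar, a bisphosphatase that favours the pentose phosphate route, fell in the knockout (-0.26 ± 0.093, adjusted p = 0.036), and Prps2, a phosphoribosyl pyrophosphate synthetase, rose (0.35 ± 0.11, adjusted p = 0.0191). Rbks and Shpk, kinases of ribose and sedoheptulose, were higher in 2i (0.79 ± 0.12, adjusted p = 5.02e-05 and 0.56 ± 0.080, adjusted p = 3.34e-05). Prps1 differed by 0.10 ± 0.062, adjusted p = 0.192 in the knockout and H6pd by 0.077 ± 0.061, adjusted p = 0.275 between media, which did not pass.

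Hif1a, the oxygen-regulated factor that acts on many glycolytic genes and is controlled mainly as a protein, averaged 25.8 ± 2.10 FPKM in wild-type 2i, 28.2 ± 1.04 in knockout and 30.1 ± 2.59 in FBS libraries. The libraries overlapped in both comparisons. It was lower in 2i than in FBS by -0.22 ± 0.068, adjusted p = 0.0118, and the knockout difference was 0.13 ± 0.068, adjusted p = 0.141. Of 23 other genes of the HIF pathway and of the oxygen response, 21 were tested: 6 were higher and 7 lower in the knockout (median 0.047), and 6 were higher and 9 lower in 2i than in FBS (median 0.13). Of all tested genes 24.0% were higher and 21.4% lower in the knockout, and 37.1% were higher and 35.3% lower in 2i than in FBS. Genes of this list, like all tested genes, thus lay on both sides of each comparison. Ddit4, an inhibitor of mTORC1 signalling, averaged 72.3 ± 11.0 FPKM in wild-type 2i, 36.2 ± 3.49 in knockout and 96.9 ± 15.7 in FBS libraries and fell in the knockout (-0.97 ± 0.12, adjusted p = 5.54e-05). Epas1, which encodes HIF2 alpha, fell (-0.49 ± 0.091, adjusted p = 0.000964), whereas Hif3a rose from 0.503 ± 0.181 to 1.11 ± 0.137 FPKM (0.50 ± 0.10, adjusted p = 0.00153). Between media, Kdm3a, a histone demethylase, was higher in 2i (1.15 ± 0.066, adjusted p = 9.99e-09), while Ankrd37 and Hif3a were lower (-1.09 ± 0.072, adjusted p = 3.61e-08 and -1.20 ± 0.10, adjusted p = 2.53e-07). Bnip3, a mitophagy receptor, differed by 0.058 ± 0.17, adjusted p = 0.802 in the knockout, and Egln2, a HIF prolyl hydroxylase, by 0.13 ± 0.061, adjusted p = 0.0682 between media. In the serine branch, which leaves glycolysis at 3-phosphoglycerate, 2 of 5 genes rose in the knockout and 0 fell: Shmt2 (0.46 ± 0.089, adjusted p = 0.00134) and Psat1 (0.31 ± 0.075, adjusted p = 0.00543), with Shmt1 at -0.086 ± 0.064, adjusted p = 0.292. Between media Shmt2 and Psph were higher in 2i (0.52 ± 0.089, adjusted p = 0.00017 and 0.46 ± 0.11, adjusted p = 0.00279), Shmt1 was lower (-0.52 ± 0.064, adjusted p = 9.86e-06), and Psat1 did not pass (0.14 ± 0.075, adjusted p = 0.101).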

How the data were processed

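The authors deposited 1 table that gives, for each RefSeq transcript and library, an FPKM and 2 bounds, per the file headers; the submitters' processing notes name the build mm9, CASAVA 1.8.2 and Cufflinks without a version. No aligner is named in the sources used here. The labels' protocols name Trizol for the RNA and an Illumina TruSeq kit for the libraries. The table held 30761 entries; name tables of GENCODE vM21 and RefSeq (GRCm38.p6) gave a symbol to 98.8% of them, and 362 had none. The 50 genes came from 72 entries, and 41 of them had 1 entry. Entries were summed per symbol, and 7 genes with a failed estimate (none of the 50) were left out. Coordinates are those of the table (mm9), 1-based, for the most abundant entry of a gene. FPKM totals were 347772 to 358340. The read depth is unknown; the steps between low values put it at 0.974 to 1.42 times that of wild-type 2i library 1. The authors' bounds held the FPKM itself for only 17 to 21 of the 41 single-entry members per library, where the bounds lay at a median of 4.83% to 5.84% from the value.

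Groups were taken from the labels. The filter kept genes that reached 1 FPKM in 4 or more libraries, and log2(FPKM + 1) was analysed, which understates differences of low genes. All 12 libraries entered 1 limma fit of group means with trended eBayes. P-values are two-sided and adjusted by Benjamini-Hochberg over the 12329 genes, and a gene was called when its adjusted p was under 0.05. All log2 differences are given ± SE with this adjusted p, unless a setting is named. The fit was also run on simulated data, but with independent noise and few changed genes, so this does not check the calls made here. R 4.3.3, limma 3.58.1, Python 3.11.15, numpy 2.4.6, pandas 2.3.3 and matplotlib 3.10.9 were used.

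The members and gene lists were chosen with earlier results of these data known. Values in every library are given for the 12 called members with the largest log2 difference in each comparison whose groups do not overlap, and group means, ranges or intervals for the others. From each related list up to 3 called genes with the smallest adjusted p and the most abundant gene not called are named, apart from 1 gene that is not reported here; the succinate dehydrogenase genes were named after their values were seen. Alternatives varied the pseudocount, filter, scaling, moderation and library weights, added the replicate number as a block or the fibroblast marker level as a term, removed the chromosome 6 shift, took only the highest entry of a gene or only the 8 libraries compared, and left out each library.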

Additional observations from a re-analysis of the deposited data

Results flagged for a closer look

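In 10 of the 150 sets formed by a gene and a group of 4 libraries, 1 library stood far from the other 3, with a gap of more than the Dixon limit of the group's range; chance alone gives this in about 1 in 20 sets. Wild-type 2i library 3 was the low library in 3 of them: Pfkl at 45.7 FPKM in wild-type 2i library 3 (the others from 53.7 to 54.7), Pgk1 at 87.1 FPKM in wild-type 2i library 3 (the others from 108 to 112) and Cs at 101 FPKM in wild-type 2i library 3 (the others from 111 to 113). Low values elsewhere were Idh1 at 44.6 FPKM in FBS library 1 (the others from 46.9 to 47.1) and Idh3b at 64.8 FPKM in knockout library 1 (the others from 67.7 to 68.1). High values were Tpi1 at 175 FPKM in knockout library 2 (the others from 146 to 150.3), Pgk1 at 259 FPKM in FBS library 3 (the others from 180.0 to 187), Dld at 36.7 FPKM in wild-type 2i library 1 (the others from 36.0 to 36.1), Aco1 at 22.9 FPKM in FBS library 2 (the others from 19.1 to 19.4) and Taldo1 at 168 FPKM in FBS library 2 (the others from 149 to 152). Aldoa, Gpi1 and Pfkl also had their highest FBS value in library 3, without passing that limit. What sets these libraries apart was not tested.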

How the results depend on the processing

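Leaving out 1 library at a time gave 20 to 31 members called in the knockout (27 with all libraries) and 29 to 33 between media (30 with all). Over all genes it gave 4710 to 5922 and 8506 to 8966. The fibroblast marker level as a term left 1959 genes and 7 members called in the knockout. All other settings kept these counts within 1.5 times, among them array weights with 35 members in the knockout. Of 1349 member values per comparison, 1220 kept direction and side of the threshold in the knockout, 96 lost and 21 gained a call, and 12 changed sign; between media these were 1300, 16, 13 and 20. None of the members that changed sign had passed with all libraries. Eno1 did not pass a filter of 5 FPKM. In the knockout the values were 0.023 for Pdha1 with quantile normalization, 0.020 for Slc2a1, -0.049 for Pfkfb3, 0.011 for Cs, -0.037 for G6pdx and -0.0021 for Hif1a with the fibroblast term, and 0.10 for Eno1 summed over its locus. Between media they were -0.0049 for Aldoc with median-ratio scaling, -0.022 for Aldoc, -0.017 for Pdk3 and -0.011 for Pdha1 with quantile normalization, -0.00090 for Pdk3 and -0.0011 for Pdha1 with array weights, -0.031 for Suclg1 without the chromosome 6 shift, and -0.066 for Pdk3 and -0.050 for Pdha1 with the fibroblast term. On leaving out 1 library the sign changed in the knockout for Mdh2 (-0.012 to 0.051), Slc2a3 (-0.15 to 0.14) and Rpia (-0.0087 to 0.11), and between media for Aldoc (-0.14 to 0.18), Eno1 (-0.35 to 0.045), Pdk3 (-0.042 to 0.066), Pdha1 (-0.020 to 0.043) and Gpi1 (-0.13 to 0.029). For these values the cause was not tested.

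With the replicate number as a block, 5567 genes and 23 members were called in the knockout and 8899 genes and 30 members between media; Gpi1, Pkm, Pdhb and Idh3g no longer passed in the knockout (adjusted p between 0.0561 and 0.0732). The labels give no meaning to the numbers. Between wild-type and knockout 2i, deviations of same-numbered libraries correlated with r from 0.0554 to 0.258, and of other pairs from -0.300 to 0.154. Between media these were 0.0266 to 0.186 and -0.206 to 0.114. In these comparisons 3 and 2 of 4 numbers correlated best with their own. The mean log2 level of the fibroblast markers rose with the number in both 2i groups. For libraries 1 to 4 it was 2.70, 2.84, 3.03 and 3.19 in wild-type 2i and 3.32, 3.53, 3.68 and 3.99 in the knockout. In FBS it did not rise (2.38, 2.19, 2.25 and 2.05). These values do not settle whether same-numbered libraries belong together. The main fit does not treat them as paired, and the block is given as an alternative. The read depth is unknown, so what it limits cannot be stated.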
